A study of Mus musculus with 4 samples.

Results

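The 10 genes described here encode the 3 ligands (Tgfb1, Tgfb2 and Tgfb3), 3 receptors (Tgfbr1, Tgfbr2 and Tgfbr3) and 4 latent TGF-beta binding proteins (Ltbp1, Ltbp2, Ltbp3 and Ltbp4) of the transforming growth factor beta pathway in the mouse. They were picked by gene symbol from the 32285 mouse genes of a single-cell RNA study of skeletal muscle, and all 10 were measured. The study asked which muscle cells receive LNP-CRISPR, that is, CRISPR gene-editing material packed in lipid nanoparticles. The mice were a DMD model (Duchenne muscular dystrophy), that is, their muscle fibres break down and give way to connective tissue. The 4 libraries were LNP-CRISPR bulk, LNP-CRISPR kit, vehicle bulk and vehicle kit: bulk is the submitters' word for a preparation of muscle cells, and kit stands for cells prepared with a satellite cell isolation kit and labelled as satellite cells. All 4 came from the same disease model, so no library of healthy muscle was part of the comparison. The labels do not give the strain or allele, the age or sex of the mice, the muscle, the dose, the route, the time between treatment and sampling or the number of mice per library. Each group was 1 library, so treatment cannot be told apart from any other difference between 2 libraries, and the text gives values and ratios without tests. Intervals in parentheses are exact 95% intervals and cover counting error only.

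Background: cells secrete TGF-beta as an inactive complex of the growth factor with its own propeptide, and most of it is tied to the extracellular matrix by latent TGF-beta binding proteins until integrins, thrombospondin or proteases free it. The free ligand is bound by TGFBR2, which recruits and activates the kinase TGFBR1, and TGFBR1 phosphorylates SMAD2 and SMAD3. In dystrophic muscle the pathway is known for driving fibrosis and for restraining muscle stem cells, and Ltbp4 is known as a modifier of disease severity in dystrophic mice.

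Promoter sequences were taken from RefSeq (build GRCm38.p6), as the 250 bases before each annotated start, for 8 of the 10 genes (12 promoters), all but Tgfb3 and Tgfbr3. The promoters of Tgfb1 and Tgfb2 are shown because these 2 ligands had their highest levels in different cells, and that of Ltbp2 because its level was far higher in FAP-like and tenocyte-like cells than in any other named class. Capitals mark GC boxes (GGGCGG, or CCGCCC on the other strand) and TATA boxes (TATAAA). The AP-1 motif (TGANTCA) and the CRE (TGACGTCA) were searched on both strands as well and were not found in these 3 windows. The Tgfb1 window lies at chr7:25686752-25687001 (+ strand), the Tgfb2 window at chr1:186705990-186706239 (- strand) and the Ltbp2 window at chr12:84876492-84876741 (- strand), each written 5′ to 3′ along its gene.
Tgfb1: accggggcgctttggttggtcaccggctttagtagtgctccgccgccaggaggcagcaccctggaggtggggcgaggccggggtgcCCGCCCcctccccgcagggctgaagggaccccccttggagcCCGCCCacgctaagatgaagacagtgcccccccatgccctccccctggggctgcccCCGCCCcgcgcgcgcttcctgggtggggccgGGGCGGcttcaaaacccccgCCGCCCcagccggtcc
Tgfb2: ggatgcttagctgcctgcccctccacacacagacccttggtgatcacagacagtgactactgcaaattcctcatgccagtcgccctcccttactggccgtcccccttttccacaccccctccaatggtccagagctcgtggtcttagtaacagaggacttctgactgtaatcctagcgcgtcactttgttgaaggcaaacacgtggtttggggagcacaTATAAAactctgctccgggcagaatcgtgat
Ltbp2: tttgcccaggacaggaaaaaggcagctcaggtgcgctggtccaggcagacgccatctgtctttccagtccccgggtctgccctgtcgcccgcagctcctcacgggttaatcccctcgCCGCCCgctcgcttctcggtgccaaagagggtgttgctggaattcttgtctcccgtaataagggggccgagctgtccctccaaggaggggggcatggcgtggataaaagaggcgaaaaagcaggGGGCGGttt

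The Tgfb1 window held 5 GC boxes, no TATAAA, 21 CpG and 75.2% G and C. The Tgfb2 window held 1 TATAAA, no GC box, 8 CpG and 53.6% G and C, and the Ltbp2 window held 2 GC boxes, no TATAAA, 16 CpG and 61.6% G and C. Among 32851 mouse promoter windows of the same length, 32.7% held a GC box and 12.4% held TATAAA, with a median of 6 CpG and 52.4% G and C. The shares with the AP-1 motif and the CRE were 6.75% and 1.55%. CAGACA, a motif bound by SMAD proteins, was searched too and left in lower case. It occurred once in the Tgfb2 window and in 17.1% of all windows. These matches describe letters in the windows and no binding was measured.

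The 4 libraries held 25921795 to 40666916 UMIs (unique molecular identifiers, 1 per captured RNA molecule) and 5651 cells after filtering, 1149 in LNP-CRISPR bulk, 1899 in LNP-CRISPR kit, 1199 in vehicle bulk and 1404 in vehicle kit. Median UMIs per cell were 16042 and 10312 in the LNP-CRISPR bulk and kit libraries, against 22270 and 8627 in the vehicle bulk and kit libraries, and 5 barcode sequences of kept cells occurred in more than 1 library. Cas9 RNA, which checks the treatment labels, was at 2081 CPM in the largest stromal cluster of LNP-CRISPR bulk and at 0 in the same cluster of vehicle bulk. Clusters were named from marker genes and carry the ending -like. FAP-like cells (fibro-adipogenic progenitors, the connective tissue progenitors of muscle) and immune cells came almost only from the bulk libraries, and pericyte/smooth muscle-like, satellite/myogenic-like, fibre-like and glial-like cells mainly from the kit libraries. The kit libraries are labelled as satellite cells, yet 389 of 1899 kept LNP-CRISPR cells and 343 of 1404 kept vehicle cells were satellite/myogenic-like, beside 128 and 112 cells of cluster 9 and 84 and 80 cells of cluster 13, which expressed Myod1 and dividing-cell genes and stayed unnamed. Levels are given as UMIs of a gene per 1000000 nuclear-encoded UMIs of a cell class in a library (CPM). With a 3′ assay a level ranks cell classes within a gene, and levels are not compared between genes. A class was given a level where a library held at least 20 of its cells.

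**Figure D1:**
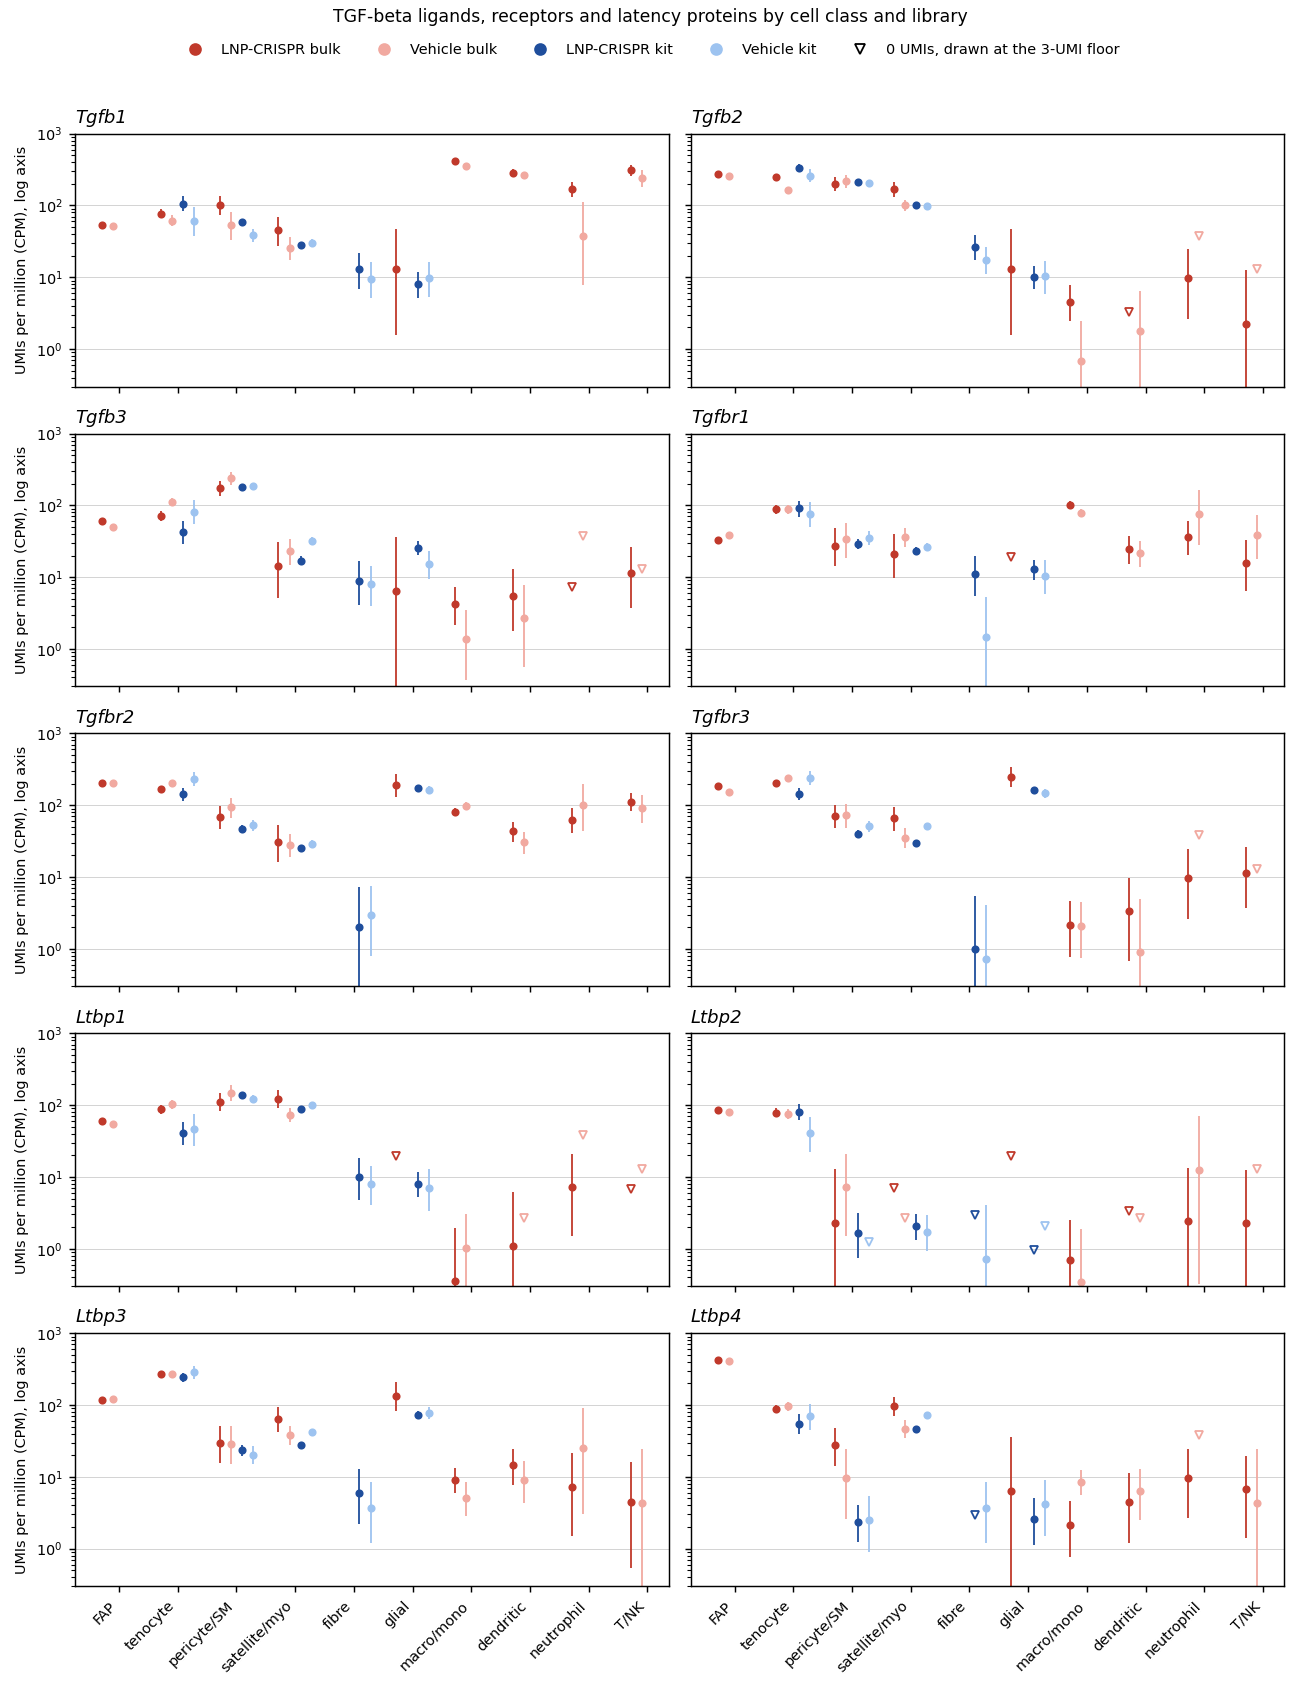
Level of each of the 10 genes (CPM, log axis) by cell class, 1 point per library with its 95% counting interval, and open triangles at the 3-UMI floor where a library had 0 UMIs. Tgfb1 was highest in macrophage/monocyte-like cells at 409.7 and 354 CPM in the LNP-CRISPR and vehicle bulk libraries, Tgfb3 in pericyte/smooth muscle-like cells, and Ltbp4 in FAP-like cells.

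Tgfb1, the ligand best known from immune cells and fibrosis (ENSMUSG00000002603, chr7:25687002-25705077 on the + strand of GRCm38), was led by immune cells. Macrophage/monocyte-like cells had 409.7 (386 to 434) CPM in LNP-CRISPR bulk and 354 (333 to 377) CPM in vehicle bulk. T/NK-like cells had 309 CPM in LNP-CRISPR cells and 239 CPM in vehicle cells, and dendritic-like cells 285 CPM in LNP-CRISPR cells and 262 CPM in vehicle cells, and these 2 classes did not differ from each other beyond counting error in either library. These 3 immune classes stood above every stromal and muscle class in both bulk libraries. Pericyte/smooth muscle-like cells had 101 and 58.1 CPM in the LNP-CRISPR bulk and kit libraries, against 52.9 and 38.7 CPM in the vehicle bulk and kit libraries. Tenocyte-like cells had 76.5 and 106 CPM in the LNP-CRISPR bulk and kit libraries, against 61.4 and 61.6 CPM in the vehicle bulk and kit libraries. FAP-like cells had 53.9 CPM in LNP-CRISPR cells and 51.8 CPM in vehicle cells, yet held 29.2% of all Tgfb1 UMIs of LNP-CRISPR bulk and 41.4% of those of vehicle bulk. Macrophage/monocyte-like cells held 42.4% and 37.4%. Such shares mix the number of cells, their depth and their level. In the kit libraries, which held too few immune cells for a level, Tgfb1 was higher in tenocyte-like and pericyte/smooth muscle-like cells than in satellite/myogenic-like cells (28.2 CPM in LNP-CRISPR kit and 29.96 CPM in vehicle kit), although the tenocyte and pericyte values of vehicle kit did not differ beyond counting error. Glial-like cells were lowest in LNP-CRISPR kit at 8.05 CPM, with 9.67 CPM in vehicle kit. After each cell was thinned to 1000 UMIs, 27.6% of LNP-CRISPR and 27.4% of vehicle macrophage/monocyte-like cells held a Tgfb1 UMI (89.9% and 87.6% unthinned, at median depths of 15286 and 14160.5 UMIs). The glial-like cells of the kit libraries, a class with little Tgfb1, gave 0.763% with LNP-CRISPR and 0% with vehicle (3.74% and 4.76% unthinned, at medians of 7699.5 and 6634.5 UMIs).

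Tgfb2, a ligand that needs the co-receptor betaglycan for efficient binding (ENSMUSG00000039239, chr1:186622792-186705989 on the - strand), lay in stromal and muscle cells. FAP-like cells had 277 (269 to 286) CPM in LNP-CRISPR bulk and 256 (249 to 262) CPM in vehicle bulk. Tenocyte-like cells had 247 and 333 CPM in the LNP-CRISPR bulk and kit libraries, against 164 and 261 CPM in the vehicle bulk and kit libraries. Pericyte/smooth muscle-like cells were nearly level over the 4 libraries, with 201 and 210.3 CPM in the LNP-CRISPR bulk and kit libraries, against 216 and 205 CPM in the vehicle bulk and kit libraries. In satellite/myogenic-like cells the values were 169.8 and 102 CPM in the LNP-CRISPR bulk and kit libraries, against 100.4 and 97.1 CPM in the vehicle bulk and kit libraries. Immune cells held next to none: macrophage/monocyte-like cells had 13 UMIs in LNP-CRISPR bulk and 2 in vehicle bulk, against 1162 and 1035 Tgfb1 UMIs in the same cells. Dendritic-like cells had 0 and 2 UMIs. The FAP-like class gave 83.2% of the Tgfb2 UMIs of LNP-CRISPR bulk and 89.9% of those of vehicle bulk. After thinning, 21.1% of LNP-CRISPR and 18.8% of vehicle FAP-like cells held a UMI, against 0.575% and 0% of macrophage/monocyte-like cells.

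Tgfb3, the third ligand, known for its role in palate fusion and scar formation (ENSMUSG00000021253, chr12:86056745-86079041 on the - strand), was highest in pericyte/smooth muscle-like cells in all 4 libraries, with 174 and 181 CPM in the LNP-CRISPR bulk and kit libraries, against 238 and 184 CPM in the vehicle bulk and kit libraries. The level was 2.45 and 4.25 times that of the next class in the LNP-CRISPR bulk and kit libraries, and 2.12 and 2.24 times in the vehicle bulk and kit libraries. Tenocyte-like cells came next with 70.8 and 42.6 CPM in the LNP-CRISPR bulk and kit libraries, against 112 and 82.1 CPM in the vehicle bulk and kit libraries, and the vehicle value was the higher one in both isolations. FAP-like cells had 60.6 CPM in LNP-CRISPR cells and 50.6 CPM in vehicle cells. The pericyte/smooth muscle-like class held 69.1% of the Tgfb3 UMIs of LNP-CRISPR kit and 55.0% of those of vehicle kit. Tgfb3 had 0 UMIs in the neutrophil-like cells of both bulk libraries, where 3 UMIs would have been 7.25 CPM with LNP-CRISPR and 38.0 CPM with vehicle. The gene Ttll5 overlaps Tgfb3 on the other strand and had 1522 UMIs, and whether the counting used strand is not given in the sources used here.

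Tgfbr1, the signalling kinase of the receptor pair (ENSMUSG00000007613, chr4:47353222-47414931 on the + strand), was highest in macrophage/monocyte-like and tenocyte-like cells. Macrophage/monocyte-like cells had 102 CPM in LNP-CRISPR cells and 78.1 CPM in vehicle cells. Tenocyte-like cells had 88.0 and 90.8 CPM in the LNP-CRISPR bulk and kit libraries, against 87.8 and 76.2 CPM in the vehicle bulk and kit libraries. The 2 classes did not differ beyond counting error in either bulk library. Within the macrophages the level lay with cluster 8, which expresses C1qa and Folr2, at 135 CPM with LNP-CRISPR and 95.9 CPM with vehicle. Cluster 15, the Ly6c2 and Chil3 monocytes, had 16.3 and 32.7 CPM. FAP-like cells had 33.2 CPM in LNP-CRISPR cells and 39.2 CPM in vehicle cells.

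Tgfbr2, the kinase that binds the ligand first (ENSMUSG00000032440, chr9:116084293-116175360 on the - strand), was spread over stromal and glial cells. FAP-like cells had 205 (198 to 212) CPM in LNP-CRISPR bulk and 203 (197 to 209) CPM in vehicle bulk. Tenocyte-like cells had 168 and 142 CPM in the LNP-CRISPR bulk and kit libraries, against 203 and 232 CPM in the vehicle bulk and kit libraries. Glial-like cells of the kit libraries had 173 CPM in LNP-CRISPR cells and 163 CPM in vehicle cells. These 3 classes changed order between libraries, so no single class led. Lower levels were found in T/NK-like cells (113 CPM with LNP-CRISPR, 91.1 CPM with vehicle) and macrophage/monocyte-like cells (80.0 and 97.6 CPM). Satellite/myogenic-like cells had 30.7 and 25.3 CPM in the LNP-CRISPR bulk and kit libraries, against 28.2 and 28.9 CPM in the vehicle bulk and kit libraries. Fibre-like cells held 2 UMIs in LNP-CRISPR kit and 4 in vehicle kit, at median depths of 1641 and 1668 UMIs per cell.

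Tgfbr3, the co-receptor betaglycan that presents TGF-beta to the kinases (ENSMUSG00000029287, chr5:107106570-107289629 on the - strand), shared that distribution without the immune part. Tenocyte-like cells had 204 and 145 CPM in the LNP-CRISPR bulk and kit libraries, against 239 and 240.4 CPM in the vehicle bulk and kit libraries. FAP-like cells had 187 CPM in LNP-CRISPR cells and 155 CPM in vehicle cells, and glial-like cells of the kit libraries 163 CPM in LNP-CRISPR cells and 146 CPM in vehicle cells. The 22 glial-like cells of LNP-CRISPR bulk had 251 CPM, not beyond counting error from its tenocyte-like cells. Macrophage/monocyte-like cells held 6 UMIs in LNP-CRISPR bulk and 6 in vehicle bulk (2.12 and 2.05 CPM). Macrophage/monocyte-like cells thus held RNA of both receptor kinases and close to none of the co-receptor. Thinned to 1000 UMIs, 18.01% of LNP-CRISPR and 17.1% of vehicle FAP-like cells held a Tgfbr3 UMI, against 0.575% and 0.498% of macrophage/monocyte-like cells. Unthinned, the shares were 91.4% and 91.0% of FAP-like cells and 3.37% and 1.98% of macrophage/monocyte-like cells.

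The latent TGF-beta binding proteins each had a class pattern of their own, and none was seen above 14.4 CPM in macrophage/monocyte-like, dendritic-like or T/NK-like cells. Ltbp1, which ties latent TGF-beta to fibronectin and fibrillin (ENSMUSG00000001870, chr17:75005568-75392512 on the + strand), had its highest level in pericyte/smooth muscle-like cells in 3 libraries and in satellite/myogenic-like cells in LNP-CRISPR bulk. Pericyte/smooth muscle-like cells had 112 and 138 CPM in the LNP-CRISPR bulk and kit libraries, against 149 and 124 CPM in the vehicle bulk and kit libraries. Satellite/myogenic-like cells had 123 and 87.9 CPM in the LNP-CRISPR bulk and kit libraries, against 74.0 and 101 CPM in the vehicle bulk and kit libraries. The pericyte class was above the myogenic class beyond counting error in both kit libraries and in vehicle bulk, while in LNP-CRISPR bulk, with 27 and 21 cells, the 2 classes did not differ beyond it. With equal weight per cell the highest class of vehicle kit was the satellite/myogenic-like one. Tenocyte-like cells had 87.2 and 41.2 CPM in the LNP-CRISPR bulk and kit libraries, against 103 and 46.9 CPM in the vehicle bulk and kit libraries. In vehicle bulk they came second, above satellite/myogenic-like cells beyond counting error. FAP-like cells had 60.9 CPM in LNP-CRISPR cells and 55.2 CPM in vehicle cells.

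Ltbp2, which assembles with elastic fibres and, unlike its relatives, is not known to bind latent TGF-beta (ENSMUSG00000002020, chr12:84783212-84876532 on the - strand), had far higher levels in FAP-like and tenocyte-like cells than in any other named class. FAP-like cells had 85.3 (80.6 to 90.1) CPM in LNP-CRISPR bulk and 80.6 (76.9 to 84.4) CPM in vehicle bulk. Tenocyte-like cells had 78.2 and 80.9 CPM in the LNP-CRISPR bulk and kit libraries, against 76.0 and 41.0 CPM in the vehicle bulk and kit libraries, and in the bulk libraries they did not differ from FAP-like cells beyond counting error. In the other 8 classes the level was at most 12.7 CPM, which was 1 UMI, and the most UMIs were 25 and 13 in the satellite/myogenic-like cells of LNP-CRISPR kit and vehicle kit. The unnamed dividing cells of cluster 9 had 3.88 and 4.96 CPM in the LNP-CRISPR and vehicle kit libraries. Glial-like and dendritic-like cells had 0 UMIs in every library that held at least 20 of them. For 428 LNP-CRISPR and 252 vehicle glial-like cells of the kit libraries, 3 UMIs would have been 0.966 and 2.07 CPM. The FAP-like class held 86.4% of the Ltbp2 UMIs of LNP-CRISPR bulk and 91.1% of those of vehicle bulk.

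Ltbp3, a latency protein known from bone and tooth development (ENSMUSG00000024940, chr19:5740904-5758532 on the + strand), was highest in tenocyte-like cells in all 4 libraries, with 270.1 and 243 CPM in the LNP-CRISPR bulk and kit libraries, against 272 and 287 CPM in the vehicle bulk and kit libraries. FAP-like cells had 116 CPM in LNP-CRISPR cells and 121 CPM in vehicle cells, and the gap to tenocyte-like cells was beyond counting error in both libraries. Glial-like cells of the kit libraries had 73.1 CPM in LNP-CRISPR cells and 78.0 CPM in vehicle cells. Ltbp4, which stabilises elastic fibres and holds latent TGF-beta in muscle (ENSMUSG00000040488, chr7:27305136-27337692 on the - strand), was led by FAP-like cells, with 423 (413 to 434) CPM in LNP-CRISPR bulk and 414 (406 to 423) CPM in vehicle bulk. That was over 4 times the next class in both bulk libraries, and FAP-like cells gave 92.9% and 94.0% of all Ltbp4 UMIs there. Tenocyte-like cells had 89.2 and 55.3 CPM in the LNP-CRISPR bulk and kit libraries, against 96.3 and 70.4 CPM in the vehicle bulk and kit libraries, and satellite/myogenic-like cells 96.7 and 46.7 CPM in the LNP-CRISPR bulk and kit libraries, against 46.7 and 72.4 CPM in the vehicle bulk and kit libraries. Pericyte/smooth muscle-like cells of the kit libraries held only 13 UMIs with LNP-CRISPR and 6 with vehicle.

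The 3 FAP-like clusters differed in these genes, which had been left out of the clustering. Cluster 4 (leading genes Cyp2f2 and Gdf10) had the most Ltbp4, 607 CPM with LNP-CRISPR and 622 CPM with vehicle, and the most Tgfb3 (119.7 and 79.7 CPM). Cluster 2 (Il1rl1 and Cxcl5) had 418 CPM of Ltbp4 with LNP-CRISPR and 337 CPM with vehicle, and led for Tgfb2 with 312 and 286 CPM. Cluster 18, of 32 LNP-CRISPR and 48 vehicle cells, expressed the proliferation gene Mki67 at 574 and 556 CPM. It had the least Ltbp4 of the 3 clusters (149 and 166 CPM) and the most Ltbp2, 174 CPM with LNP-CRISPR and 175 CPM with vehicle. Ltbp2 was 78.8 and 88.2 CPM in cluster 2 and 42.6 and 30.5 CPM in cluster 4. The order of the clusters for Ltbp2 and for Ltbp4 was the same in both treatments.

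**Figure D2:**
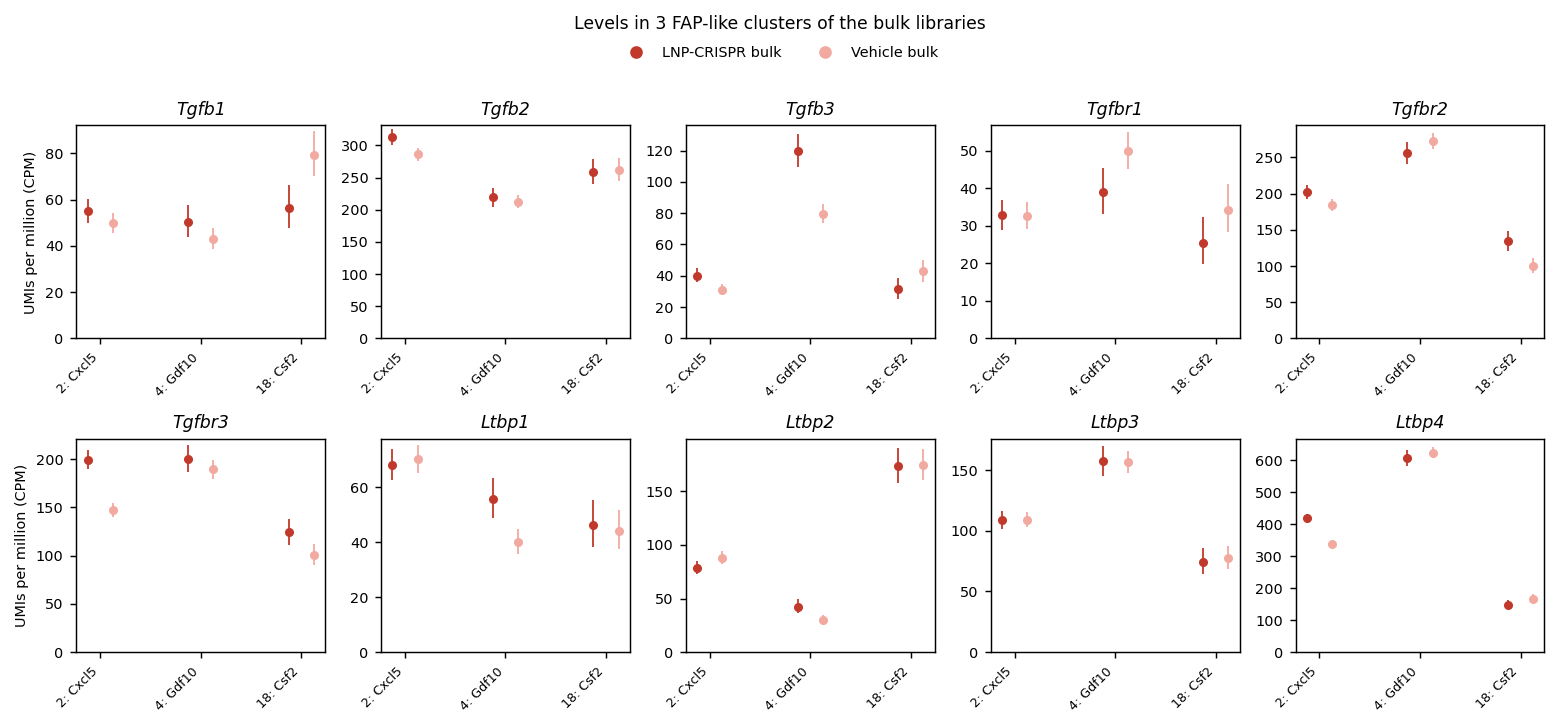
Level (CPM, linear axis from 0, 95% counting intervals) of the 10 genes in the 3 FAP-like clusters of the bulk libraries, LNP-CRISPR beside vehicle. Cluster 18 stands highest for Ltbp2 (174 and 175 CPM with LNP-CRISPR and vehicle) and lowest for Ltbp4, and cluster 4 highest for Ltbp4 and Tgfb3.

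Muscle stem and precursor cells of the kit libraries also differed by cluster in these genes. Cluster 1 expressed the stem cell genes Pax7 (215 CPM with LNP-CRISPR, 238 CPM with vehicle) and Calcr. Clusters 9 and 13 were dividing cells led by histone genes and by Cdc20, with Mki67 at 485 CPM with LNP-CRISPR and 402 CPM with vehicle in cluster 9 and at 502 and 417 CPM in cluster 13. They held less Pax7 (33.1 and 35.4 CPM in cluster 9), and clusters 14 and 19 expressed Myog, a gene of differentiating muscle. Tgfbr3 was 87.0 CPM in LNP-CRISPR and 114 CPM in vehicle cells of cluster 1, and at most 7.77 CPM in each of the other 4 clusters. Ltbp4 was 123 and 151 CPM in cluster 1 and at most 31.7 CPM in the others, and Ltbp3 was 63.5 and 80.0 CPM in cluster 1 and at most 36.5 CPM elsewhere. Tgfb2 was also highest in cluster 1, 209.6 CPM with LNP-CRISPR and 152 CPM with vehicle. Ltbp1 kept a level of 76.0 to 139 CPM over clusters 1, 9, 13 and 14, and was 21.4 and 10.5 CPM in cluster 19. Col1a1, a marker of connective tissue cells, was also highest in cluster 1 (119 and 165 CPM) and at most 24.1 CPM in the other 4, while Pdgfra, which defines FAPs, was at most 1.07 CPM in all 5 clusters.

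**Figure D3:**
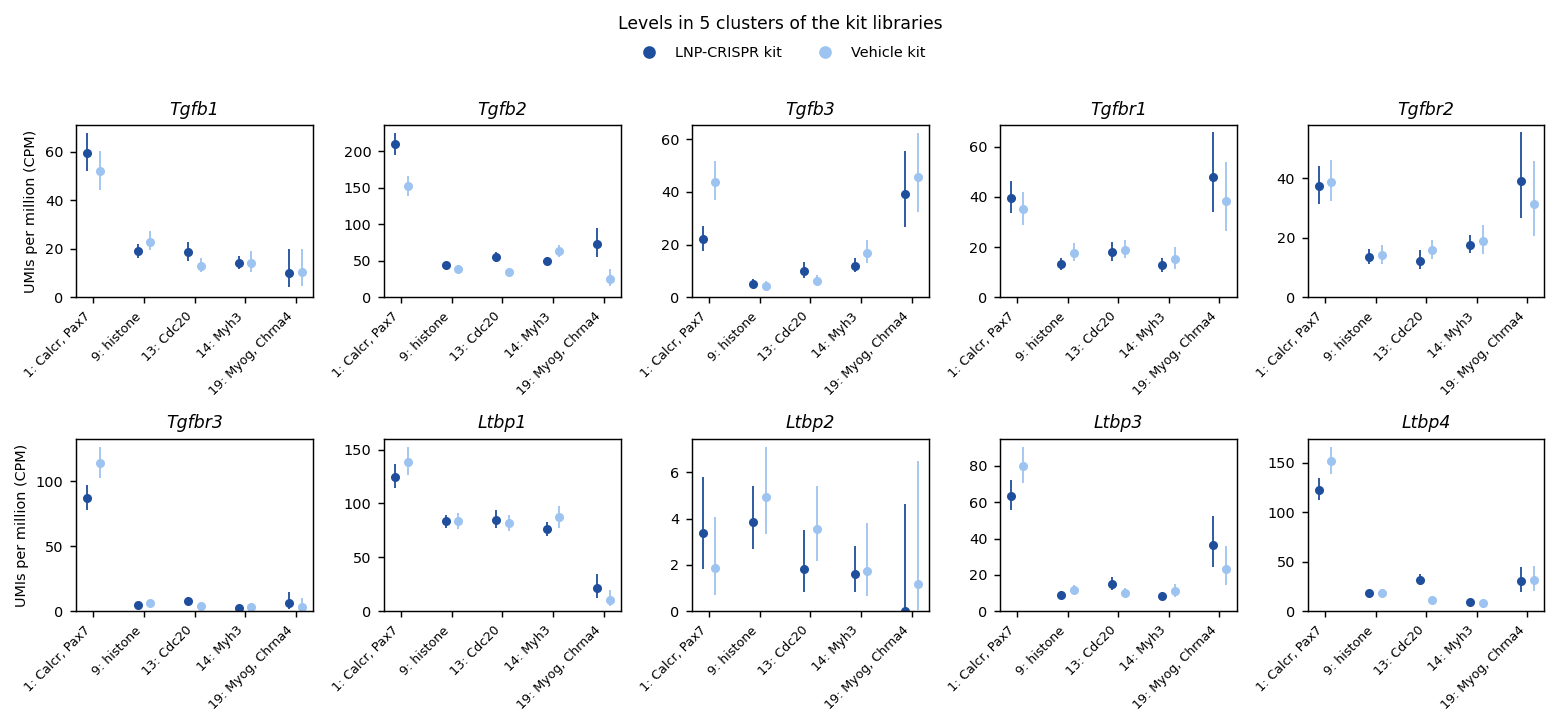
Level (CPM, linear axis from 0, 95% counting intervals) of the 10 genes in 5 clusters of the myogenic lineage of the kit libraries, LNP-CRISPR beside vehicle. Tgfb2, Tgfbr3, Ltbp3 and Ltbp4 stand highest in cluster 1, the Pax7 and Calcr cells, in both treatments.

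Genes with the most similar pattern were ranked by Pearson's r of log2(CPM + 10) over the 18 sums of a class in a library with at least 50 cells, among 10863 genes. The sums share libraries and differ in depth, so r is a description and carries no p. Tgfb1 was most like Shisa5 (r = 0.957), Casp8 and Camk1d. Tgfb2 and Ltbp1 shared the same nearest gene, Nbl1, at r = 0.975 and 0.966, and were next most like Sdc2 and Ddr2 for Tgfb2 and Rbfox2 and Hoxc8 for Ltbp1. Tgfb3 was most like Pls3 (r = 0.973), Lamb2, a basement membrane laminin, and Syde1. Tgfbr1 had the weakest neighbour, Tmem184b at r = 0.878, before Tmem43 and Rab1a, and Tgfbr2 was most like Slc10a7 (r = 0.927), Fbh1 and Herpud2. Tgfbr3 was most like Sparc (r = 0.989), a matrix glycoprotein, Kdelr3 and Dsel. Ltbp2 was most like Dnm1 (r = 0.993), Tmem45a and Cthrc1, and Ltbp3 was most like Col12a1 (r = 0.979), a fibril-associated collagen of tendon, P3h4 and Spin4. Ltbp4 was most like Igfbp3 (r = 0.9822), Bcat1 and Adam12.

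LNP-CRISPR was compared with vehicle within each isolation, for the 8 classes with at least 50 cells in both libraries. A gene entered with at least 50 UMIs over both libraries, and was called past the fold at a ratio of 1.5 or more, or of 0.667 or less. Beside each count of the 10 genes stands the share of all genes past the same fold, since 1 pair of libraries differs in many genes. Of the 48 pairs of gene and class with enough UMIs, 9 were past the fold, 4 higher and 5 lower with LNP-CRISPR. Of the 61097 such pairs over all genes in the same classes, 9.59% were past it, 4.49% higher and 5.1% lower.

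**Figure D4:**
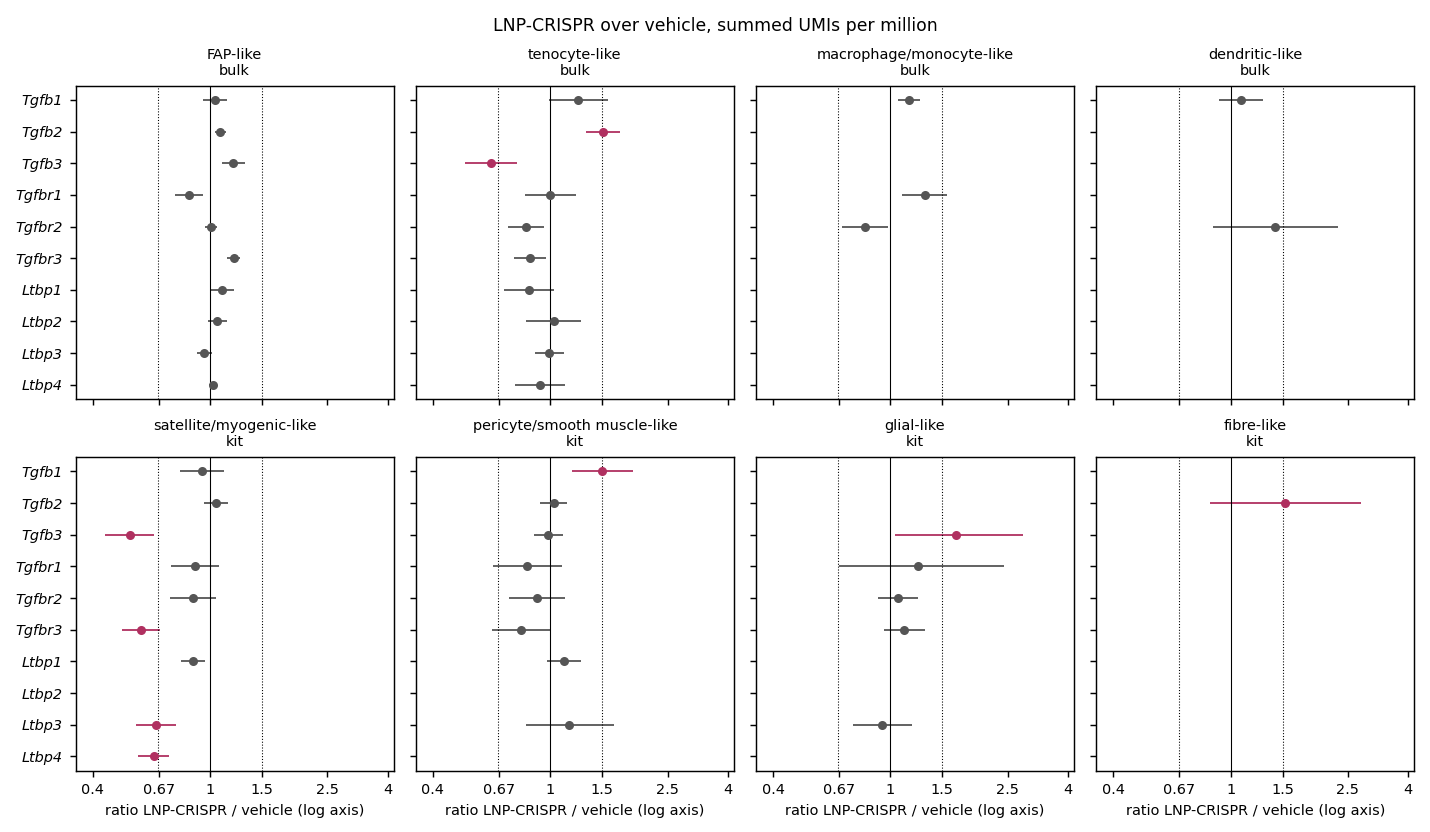
Ratio of LNP-CRISPR to vehicle (log axis, 95% counting intervals) for the 10 genes in 8 cell classes, with dotted lines at 1.5-fold and colour for ratios past it, and only genes with at least 50 UMIs drawn. The FAP-like, macrophage/monocyte-like and dendritic-like panels have no coloured point, and the satellite/myogenic-like panel has 4, all lower with LNP-CRISPR.

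In FAP-like cells (429 with LNP-CRISPR, 645 with vehicle, bulk), 0 of 10 genes were past 1.5-fold, where 6% of 12091 genes were. The 10 ratios ran from 0.849 (0.758 to 0.949) for Tgfbr1 to 1.20 (1.14 to 1.26) for Tgfbr3, with 1.02 (0.990 to 1.06) for Ltbp4, 1.01 (0.962 to 1.06) for Tgfbr2 and 1.04 (0.948 to 1.14) for Tgfb1. The class rested on different clusters in the 2 libraries: cluster 2 was the largest with LNP-CRISPR (243 of 429 cells) and cluster 4 with vehicle (323 of 645 cells). Within cluster 2, 0 of 10 genes were past the fold (7.41% of all genes). Within cluster 4, 1 of 10 was (6.48% of all genes, 2.4% higher), namely Tgfb3, with 119.7 CPM in LNP-CRISPR cells and 79.7 CPM in vehicle cells, a ratio of 1.502 (1.33 to 1.69) that was 1.39 without the highest cell of each library.

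In tenocyte-like cells (109 with LNP-CRISPR, 81 with vehicle, bulk), 2 of 10 genes were past the fold, 1 in each direction, against 10.8% of 7384 genes, 5.02% higher and 5.76% lower. Tgfb2 was higher, with 603 UMIs and 247 CPM in LNP-CRISPR cells against 347 UMIs and 164 CPM in vehicle cells, a ratio of 1.51 (1.32 to 1.72). That call lay at the threshold: the ratio was 1.43 without the highest cell of each library, 1.49 without cells holding a UMI of the immune gene Ptprc, and 1.19 with equal weight per cell. Tgfb3 was lower, with 70.8 CPM in LNP-CRISPR cells and 112 CPM in vehicle cells, a ratio of 0.630 (0.515 to 0.770) that stayed below 0.667 in all 9 alternatives. Keeping called doublets, finer clustering and weighting the clusters as in vehicle returned the same value, the last because the class is a single cluster. The kit tenocyte-like cells, 39 with LNP-CRISPR and 24 with vehicle, were too few for a comparison and had 42.6 and 82.1 CPM of Tgfb3. Acta2, a gene of smooth muscle and pericytes, moved the same way, at 92.1 and 97.9 CPM in the LNP-CRISPR bulk and kit libraries, against 154 and 191 CPM in the vehicle bulk and kit libraries. Pericyte/smooth muscle markers as a list, Acta2 among them, summed to 159 CPM in LNP-CRISPR and 189 CPM in vehicle tenocyte-like cells of bulk (7 of 12 and 9 of 12 with a UMI, with Abcc9, Higd1b and Cnn1 at 0 in both), and to 172 and 287 CPM in those of kit (7 of 12 in each). In bulk the sum differed by less than Acta2 alone, so the other markers together were higher with LNP-CRISPR. In kit the other markers together were lower with LNP-CRISPR. Beside these values, neutrophil markers summed to 87.2 CPM in LNP-CRISPR and 16.5 CPM in vehicle tenocyte-like cells of bulk (7 of 9 markers with a UMI in each, Ly6g at 0 in both). T/NK markers summed to 1.23 and 0 CPM (3 of 12 and 0 of 12, with Cd3e and Trac at 0 in both), and FAP markers to 56642 and 64936 CPM (12 of 12 in each). The FAP list includes the collagen genes Col1a1 and Col3a1. Its members Pi16, Dpp4, Pdgfra, Smoc2 and Cxcl14 had 4.91, 27.4, 36.8, 20.1 and 437 CPM with LNP-CRISPR. With vehicle they had 8.03, 44.9, 35.4, 39.2 and 351 CPM. The part of all these markers in the result was not tested.

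In macrophage/monocyte-like cells, 3 of the 10 genes had enough UMIs and 0 were past the fold (7.9% of 7523 genes). Tgfb1 was at 409.7 CPM in LNP-CRISPR cells and 354 CPM in vehicle cells (ratio 1.16, interval 1.06 to 1.26), Tgfbr1 had a ratio of 1.31 (1.09 to 1.56) and Tgfbr2 of 0.820 (0.686 to 0.980). Within cluster 8 the Tgfbr1 ratio was 1.41 (1.17 to 1.70), and 0 of 3 genes were past the fold (9.38% of all genes). In cluster 15 it was 0 of 2 (12.2% of all genes). In dendritic-like cells 2 genes had enough UMIs and 0 were past the fold (14.3% of 4442 genes), with ratios of 1.09 (0.915 to 1.29) for Tgfb1 and 1.42 (0.871 to 2.31) for Tgfbr2. Neutrophil-like cells numbered 155 with LNP-CRISPR and 33 with vehicle in bulk, so they were not compared. They held 70 Tgfb1 UMIs in LNP-CRISPR bulk, a level of 169 (132 to 214) CPM, and 3 in vehicle bulk, a level of 38.0 (7.84 to 111) CPM, at median depths of 2573 and 1637 UMIs per cell.

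In pericyte/smooth muscle-like cells of the kit libraries, 8 genes had enough UMIs and 1 was past the fold (10.8% of 8204 genes, 3.67% higher). Tgfb1 was higher, with 320 UMIs and 58.1 CPM in 339 LNP-CRISPR cells against 94 UMIs and 38.7 CPM in 160 vehicle cells, a ratio of 1.501 (1.19 to 1.91). The ratio lay at the threshold. It was 1.45 within cluster 3, which held 306 and 142 of these cells (0 of 8 genes past the fold there, 10.8% of all genes). Of 9 alternatives 7 were past the fold, at most 1.59, while it was 1.34 with called doublets kept and 1.37 under a stricter cell filter. Among the 7, the removal of cells with mixed markers left the ratio unchanged. Macrophage markers summed to 2.36 CPM in LNP-CRISPR and 0.823 CPM in vehicle cells (3 of 12 and 2 of 12 with a UMI, Adgre1, C1qa and C1qb at 0 in both), and fibre markers to 663 and 1157 CPM (10 of 12 and 11 of 12). The part of the fibre RNA in the result was not tested. Tgfb3, the ligand that marked these cells, had a ratio of 0.987 (0.882 to 1.11), and Ltbp1 of 1.11 (0.972 to 1.28).

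In satellite/myogenic-like cells of the kit libraries (389 with LNP-CRISPR, 343 with vehicle), 9 genes had enough UMIs and 4 were past the fold, all lower, against 9.38% of 10668 genes in either direction and 6.45% lower. Tgfb3 was at 16.9 CPM in LNP-CRISPR cells and 31.7 CPM in vehicle cells (205 and 238 UMIs), a ratio of 0.535 (0.441 to 0.647). Tgfbr3 was at 29.7 CPM in LNP-CRISPR cells and 50.9 CPM in vehicle cells, a ratio of 0.583 (0.504 to 0.675). Ltbp4 was at 46.7 CPM in LNP-CRISPR cells and 72.4 CPM in vehicle cells, a ratio of 0.645 (0.572 to 0.726), and Ltbp3 at 27.6 CPM in LNP-CRISPR cells and 42.1 CPM in vehicle cells, a ratio of 0.656 (0.561 to 0.767). The other 5 ratios ran from 0.875 for Ltbp1 to 1.05 for Tgfb2.

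The class held different mixes of clusters. The LNP-CRISPR library had 248 cells of cluster 1, 107 of cluster 14 and 34 of cluster 19, and the vehicle library had 247, 59 and 37. Cluster 14 cells are deep, with a median of 70572 UMIs against 13596.5 in cluster 1, and hold little Tgfbr3, Ltbp3 and Ltbp4. With the LNP-CRISPR clusters weighted as in vehicle, the ratios were 0.611 for Tgfb3, 0.774 for Tgfbr3, 0.837 for Ltbp3 and 0.835 for Ltbp4, so that 1 of the 4 was still past the fold. Within cluster 1 alone, 1 of 9 genes was past it (10% of all genes, 5.35% lower), again Tgfb3, with 22.0 CPM in LNP-CRISPR cells and 43.7 CPM in vehicle cells, a ratio of 0.502 (0.378 to 0.662). Tgfb3 stayed below 0.667 in all 9 alternatives of the class and all 5 of the cluster. Some of these left the ratio unchanged: the removal of cells with mixed markers in both, and the cluster mix of vehicle in the cluster, where it can change nothing. Tgfb2 ran the other way in cluster 1, with 209.6 CPM in LNP-CRISPR cells and 152 CPM in vehicle cells, a ratio of 1.38 (1.23 to 1.55) within the fold. FAP markers summed to 521 CPM in LNP-CRISPR and 801 CPM in vehicle cells of the class (12 of 12 and 9 of 12 with a UMI, with Pi16, Dpp4 and Smoc2 at 0 in vehicle), and fibre markers to 6479.6 and 5543 CPM (12 of 12 in each). Their part in the lower values was not tested.

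The dividing cells of cluster 13 (84 with LNP-CRISPR, 80 with vehicle) also had genes past the fold, and 3 of them, Tgfb3, Tgfbr3 and Ltbp4, were lower in the satellite/myogenic-like class and higher here. Of 9 genes with enough UMIs, 4 were past the fold, all higher, where 6.88% of 9069 genes were past it and 3.32% were higher. Ltbp4 was at 31.7 CPM in LNP-CRISPR cells and 11.6 CPM in vehicle cells, with 155 and 69 UMIs, a ratio of 2.73 (2.04 to 3.68) that was 2.80 without the highest cell of each library. Tgfbr3 had 38 UMIs in LNP-CRISPR and 25 in vehicle cells (ratio 1.85, interval 1.09 to 3.19), Tgfb3 had 49 and 37 (ratio 1.61, interval 1.03 to 2.53) and Tgfb2 had 271 and 209 (ratio 1.57, interval 1.31 to 1.89). Ltbp3 lay just inside the fold at 1.498. Tgfb2, Tgfbr3 and Ltbp4 had their highest myogenic level in cluster 1, as did Ltbp3, which was not past the fold here. Marker levels differed as well. Pax7 was higher, at 43.6 CPM in LNP-CRISPR and 33.9 CPM in vehicle cells, as was Col1a1 at 24.1 and 11.6 CPM, while Myog was lower at 51.5 and 179 CPM. Their part in the result was not tested. In cluster 9, also dividing cells, 0 of 10 genes were past the fold (5.64% of all genes), with a ratio of 1.003 (0.782 to 1.29) for Ltbp4. In cluster 14, 0 of 8 genes were past it (7.77% of all genes).

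**Figure D5:**
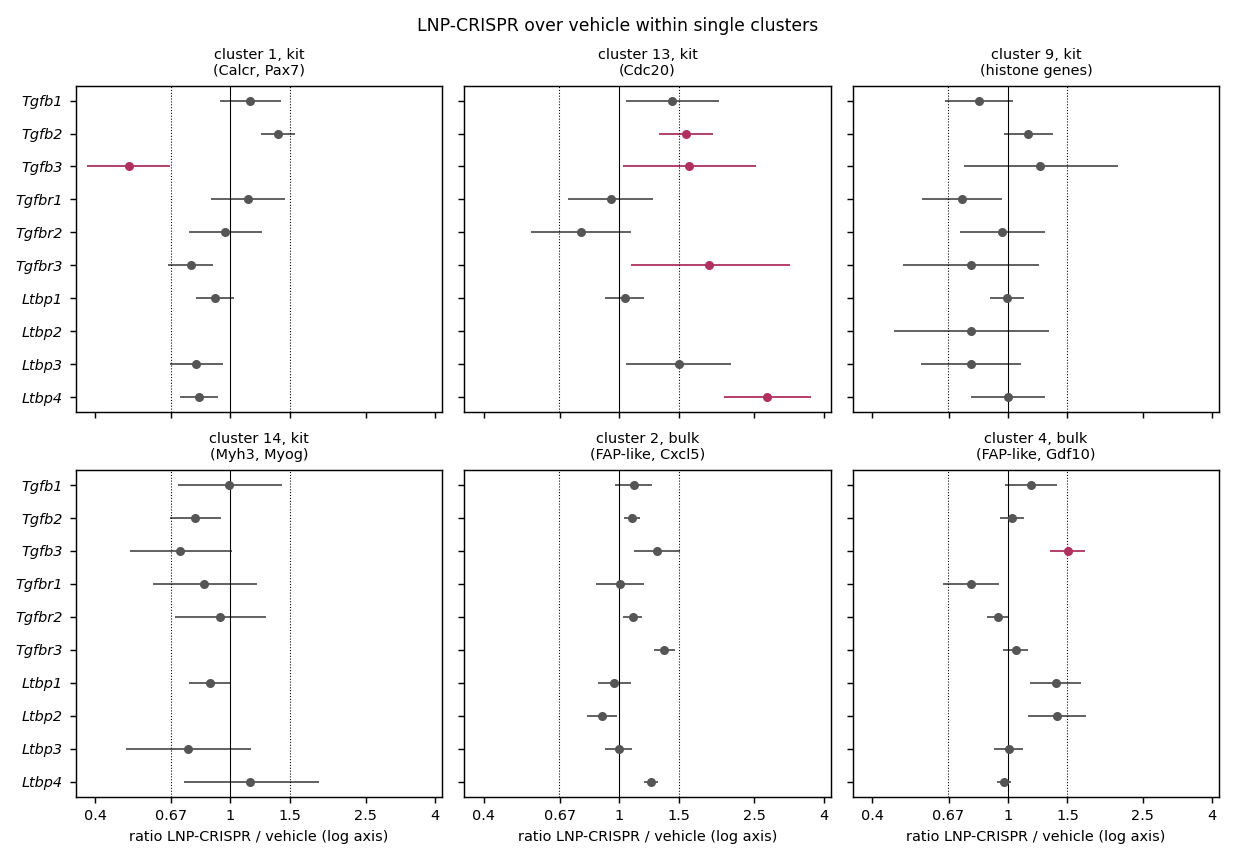
Ratio of LNP-CRISPR to vehicle (log axis, 95% counting intervals) for the 10 genes within single clusters, clusters 1, 13, 9 and 14 of the kit libraries and clusters 2 and 4 of the bulk libraries, with dotted lines at 1.5-fold and colour for ratios past it. Ltbp4 in cluster 13 lies farthest to the right at 2.73, and Tgfb3 in cluster 1 farthest to the left at 0.502.

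In glial-like cells of the kit libraries, 5 genes had enough UMIs and 1 was past the fold (7.68% of 7762 genes, 5.01% higher). Tgfb3 was higher, with 79 UMIs and 25.4 CPM in 428 LNP-CRISPR cells against 22 UMIs and 15.2 CPM in 252 vehicle cells, a ratio of 1.67 (1.03 to 2.82) that was 1.499 with equal weight per cell. Within cluster 0 it was 1.70 (1.04 to 2.90), 1 of 5 genes past the fold (7.46% of all genes, 4.98% higher). Pericyte/smooth muscle-like cells, the class with the most Tgfb3, made up 339 cells of LNP-CRISPR kit and 160 of vehicle kit, and their markers summed to 339 CPM in LNP-CRISPR and 255 CPM in vehicle glial-like cells (9 of 12 and 10 of 12 with a UMI, with Kcnj8 and Higd1b at 0 in both). Their part in the result was not tested. The receptors of these cells had ratios of 1.06 (0.910 to 1.24) for Tgfbr2 and 1.12 (0.948 to 1.32) for Tgfbr3. In fibre-like cells only Tgfb2 had enough UMIs, 27 in LNP-CRISPR and 24 in vehicle kit, and its ratio of 1.53 (0.849 to 2.77) was past the fold in a class where 20.8% of 3023 genes were, 18.3% higher and the rest lower. One LNP-CRISPR cell held 9 of those UMIs, and with equal weight per cell the ratio turned to 0.672. The median log2 ratio over all genes of the class was 0.14.

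Kit and bulk could not be compared by count, because no class reached 50 cells in both isolations of a treatment. As values, pericyte/smooth muscle-like cells of the LNP-CRISPR libraries had 58.1 CPM of Tgfb1 in kit and 101 CPM in bulk, and those of the vehicle libraries 38.7 and 52.9 CPM. Satellite/myogenic-like cells had 46.7 CPM of Ltbp4 in kit and 96.7 CPM in bulk with LNP-CRISPR, and 72.4 and 46.7 CPM with vehicle. The bulk values rest on 21 to 31 cells. The mix of clusters in the satellite/myogenic-like class differed too. Cluster 1, which had the most Ltbp4, gave 18 cells in LNP-CRISPR bulk and 248 in LNP-CRISPR kit. The deep cluster 14, with little Ltbp4, gave 2 and 107. In the vehicle libraries cluster 1 gave 23 cells in bulk and 247 in kit, and cluster 14 gave 4 and 59. The part of this mix in the values was not tested.

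The genes around the pathway were followed in 4 lists: 17 genes of release and anchoring of latent TGF-beta, 10 of co-receptors and extracellular modulators, 17 of SMAD signalling and 22 of target genes. Dcn, Fmod, Mmp9, Col1a1 and Col3a1 are also cell markers. In FAP-like cells 1 listed gene was past the fold, Tgm2, a transglutaminase that crosslinks latent complexes to the matrix, at 72.4 CPM with LNP-CRISPR and 47.5 CPM with vehicle, a ratio of 1.52 (1.40 to 1.66). By list, the genes past the fold were 1 higher and 0 lower of 15 for release and anchoring, 0 higher and 0 lower of 10 for co-receptors and modulators, 0 higher and 0 lower of 17 for SMAD signalling and 0 higher and 0 lower of 22 for target genes. Over all genes of the class, 2.2% were higher past the fold. The 22 target genes had 0 past the fold there, with a median log2 ratio of 0.02 against -0.05 for all genes, and 17 SMAD genes had 0, with a median of -0.03. The 3 genes of each list with the most UMIs over all kept cells were within the fold in this class, with ratios of 1.14 for Thbs1, a releaser of latent TGF-beta, 0.9501 for the integrin Itgb1, 1.004 for the fibrillin Fbn1, 0.897 and 0.954 for the TGF-beta binding proteoglycans Dcn and Bgn, 1.36 for Fmod, 0.988, 0.923 and 1.34 for the signalling modulators Fkbp1a, Pmepa1 and Skil, and 0.961, 0.905 and 0.920 for Col1a1, Col3a1 and Col1a2.

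In tenocyte-like cells 3 listed genes were past the fold, all higher with LNP-CRISPR. By list, the genes past the fold were 1 higher and 0 lower of 12 for release and anchoring, 0 higher and 0 lower of 10 for co-receptors and modulators, 0 higher and 0 lower of 16 for SMAD signalling and 2 higher and 0 lower of 20 for target genes. Over all genes of the class, 5.02% were higher and 5.76% lower past it. Ccn2, a matricellular target gene, was at 2507 CPM in LNP-CRISPR cells and 952 CPM in vehicle cells, a ratio of 2.63 (2.503 to 2.77) that was 2.57 without the highest cells. Tgm2 had a ratio of 1.78 (1.39 to 2.29) and Sphk1, a sphingosine kinase, of 1.68 (1.39 to 2.03). The median over 20 target genes with enough UMIs was 0.02 on the log2 scale, against -0.03 for all genes, so the list as a whole stood near even. The collagens of these cells were below even, at 0.900 for Col1a1, 0.914 for Col1a2 and 0.757 for Col3a1, and Fmod, a tendon proteoglycan, was at 0.958.

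In macrophage/monocyte-like cells 4 of 12 target genes with enough UMIs were past the fold, all higher, where 3.38% of all genes were higher: Postn (2.64, interval 1.89 to 3.73), Lox (1.79, interval 0.988 to 3.33), Col1a1 (1.65, interval 1.43 to 1.90) and Sphk1 (2.15, interval 1.29 to 3.65). Postn, Lox and Col1a1 are matrix genes of connective tissue cells, and without the highest cell of each library their ratios were 1.58, 1.54 and 1.29. FAP markers, a list that itself includes Col1a1, summed to 654 CPM in LNP-CRISPR and 536 CPM in vehicle macrophage/monocyte-like cells (12 of 12 in each), and their part in these ratios was not tested. The other 3 lists had 0 genes past the fold, of 11 for release and anchoring, 7 for co-receptors and modulators and 15 for SMAD signalling. Thbs1, which these cells express, was at 5354 CPM with LNP-CRISPR and 4366 CPM with vehicle, a ratio of 1.23 (1.20 to 1.26) within the fold. The SMAD list stood at a median of -0.20 on the log2 scale against -0.03 for all genes. In dendritic-like cells 8 listed genes were past the fold in a class where 14.3% of genes were, 296 higher and 337 lower of 4442. By list, they were 1 higher and 0 lower of 6 for release and anchoring and 2 higher and 1 lower of 4 for co-receptors and modulators. For SMAD signalling they were 1 higher and 0 lower of 11, and for target genes 2 higher and 1 lower of 9. Higher were Thbs1 (2.54), Dcn (1.85), Bgn (2.12), Tgif1 (1.53), Postn (3.20) and Fn1 (1.64), and lower were Nrp1 (0.523) and Col3a1 (0.402). Single cells held much of several of them: without the highest cell of each library Postn was at 1.33, Dcn at 1.48, Bgn at 1.49 and Col3a1 at 1.14.

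In pericyte/smooth muscle-like cells 5 listed genes were past the fold. By list, the genes past the fold were 1 higher and 0 lower of 11 for release and anchoring, 0 higher and 1 lower of 8 for co-receptors and modulators, 0 higher and 0 lower of 16 for SMAD signalling and 2 higher and 1 lower of 14 for target genes. Among all genes of the class 3.67% were higher and 7.14% lower past it. Those higher included the integrin subunit Itgb3 (1.72, interval 1.12 to 2.70) and Sphk1 (1.72, interval 1.37 to 2.17). Lower were the pseudoreceptor Bambi (0.524, interval 0.371 to 0.742) and Ccn1 (0.655), and Ccn1 was at 0.900 without the highest cells. Thbs1 was at 3163 CPM with LNP-CRISPR and 2325 CPM with vehicle, a ratio of 1.36 (1.32 to 1.40). The median log2 ratio of the 14 target genes with enough UMIs was 0.09, against -0.07 for all genes.

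In satellite/myogenic-like cells 6 listed genes were past the fold, 5 of them lower. By list, the genes past the fold were 0 higher and 1 lower of 12 for release and anchoring, 1 higher and 2 lower of 8 for co-receptors and modulators, 0 higher and 0 lower of 16 for SMAD signalling and 0 higher and 2 lower of 19 for target genes. Among all genes of the class 2.93% were higher and 6.45% lower past it. Lower were the matrix genes Bgn (0.654, interval 0.597 to 0.715), Postn (0.591, interval 0.509 to 0.685), Col1a1 (0.575, interval 0.509 to 0.649) and Dcn (0.653), and the integrin subunit Itgb8 (0.532, interval 0.295 to 0.952), which activates latent TGF-beta. Higher was Vasn, a TGF-beta trap (1.52, interval 1.10 to 2.11). Dcn was at 0.802 without the highest cells. Col1a2 (0.6702) and Col3a1 (0.695) lay just inside the fold. These values hold for the whole class, whose mix of clusters differed between the libraries as given above. The median over 19 target genes was -0.28 and over 8 co-receptors and modulators -0.36 on the log2 scale, against -0.01 for all genes. Within cluster 1 the target genes past the fold were 3 higher and 0 lower of 19, with a median of -0.14 against 0.01 for all genes, of which 4.67% were higher and 5.35% lower past the fold. The counts there were 0 higher and 0 lower of 9 for release and anchoring, 1 higher and 0 lower of 6 for co-receptors and modulators and 0 higher and 0 lower of 16 for SMAD signalling.

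In glial-like cells 4 listed genes were past the fold, all higher. By list, the genes past the fold were 1 higher and 0 lower of 8 for release and anchoring, 0 higher and 0 lower of 5 for co-receptors and modulators, 1 higher and 0 lower of 14 for SMAD signalling and 2 higher and 0 lower of 13 for target genes. The share of all genes of the class that were higher past it was 5.01%. Thbs1 had 182 UMIs in LNP-CRISPR and 6 in vehicle glial-like cells (58.6 and 4.14 CPM), a ratio of 14.1 (6.37 to 39.0). One LNP-CRISPR cell held 77 of these UMIs, which leaves 9.79 once the highest cell of either library is dropped. Thbs1 was at 3163 and 2325 CPM in the pericyte/smooth muscle-like cells of the same libraries, and the part of their RNA was not tested. The other 3 were Sphk1 (2.02, interval 1.29 to 3.29), Timp1, an inhibitor of matrix metalloproteinases (1.68, interval 1.18 to 2.45), and Zfyve9, an anchor that brings SMAD proteins to the receptor (1.56, interval 1.09 to 2.27). In fibre-like cells 11 listed genes had enough UMIs and 5 were past the fold, all higher (Itgb1 1.92, Tgm2 2.20, Bhlhe40 1.83, Junb 1.92 and Tagln 2.18), in a class where 18.3% of genes were higher past the fold. Sphk1 was past the fold and higher with LNP-CRISPR in 4 of the 8 classes (tenocyte-like and macrophage/monocyte-like from the bulk libraries, pericyte/smooth muscle-like and glial-like from the kit libraries). It stood within the fold in FAP-like (1.29, interval 1.17 to 1.42) and satellite/myogenic-like cells (1.41, interval 0.981 to 2.04), and the other 2 classes had too few UMIs of it. No share of all genes called in as many classes is given, so this recurrence is not read as a result about Sphk1.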

How the data were processed

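Single cells of skeletal muscle were measured with 10x Genomics Chromium 3′ v3.1 chemistry in 4 libraries, 1 per group. The deposited values are whole-number UMI counts per gene and barcode, made with cellranger 5.0.1 per the file headers and with Cell Ranger 7.0.1 and mm10 per the submitters' processing notes. The authors had already limited the barcodes to called cells. The other deposited lists hold barcodes and gene names only.

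The 6512 barcodes were filtered at 200 detected genes and 20% mitochondrial UMIs, and Scrublet removed 23 cells. It called 0.260% to 0.496% of a library, against an expected rate of 0.05 as a fraction, so most doublets are likely to be still present. Counts were scaled to 10000 UMIs per cell and clustered (Leiden, resolution 1, 30 principal components, 15 neighbours, seed 1) on 1984 variable genes, with the 10 genes and the genes of the pathway lists held out (76 in all). A cluster was named from 16 marker lists when it had 3 or more markers enriched by at least 1 on the log2 scale, each found in 10% or more of its cells, and a cluster stayed unnamed when its 10 leading genes held more markers of another class, or when it was shallow with no marker among them. The naming rule was settled after the clusters had been seen, and classes built otherwise may differ from those of the study.

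Levels are summed UMIs per 1000000 nuclear-encoded UMIs with exact Poisson intervals, and ratios of 2 libraries have exact binomial intervals. Medians of lists used a pseudocount of 0.5 UMIs. Shares of cells were also taken after thinning each cell to 1000 UMIs, which left out 4 and 1 macrophage/monocyte-like cells, 7 and 2 FAP-like cells of LNP-CRISPR and vehicle bulk, and 35 and 43 glial-like cells of LNP-CRISPR and vehicle kit.

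The 10 genes and all lists were chosen with earlier results of these data known. All 10 genes are described. Of each pathway list, the 3 members with the most UMIs are named, with any member past 1.5-fold in a cell class, apart from a few items that are not reported here. Genes of these lists past the fold within a single cluster are counted and not named. Gene positions are from GENCODE M21 (GRCm38), to which 32158 gene IDs were matched, and promoters from RefSeq. Python 3.11.15, scanpy 1.11.5, leidenalg 0.10.2, scikit-learn 1.9.0, numpy 2.4.6, scipy 1.17.1, pandas 2.3.3 and matplotlib 3.10.9 were used. Alternatives were a stricter filter, kept doublets, finer clustering, all variable genes, other scaling and weights, other UMI minimums, and the highest cell left out. Unnamed clusters other than 9 and 13, and clusters with fewer than 20 cells in a library, were left out.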

Additional observations from a re-analysis of the deposited data

Results flagged for a closer look

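Tgfb3, the ligand highest in pericyte/smooth muscle-like cells, had ratios of LNP-CRISPR to vehicle in opposite directions between cell classes. The ratio was 0.630 in tenocyte-like cells of the bulk libraries and 0.535 in satellite/myogenic-like cells of the kit libraries, lower with LNP-CRISPR in both. It was 1.67 in glial-like cells of the kit libraries, higher with LNP-CRISPR. That call rested on 79 UMIs with LNP-CRISPR and 22 with vehicle. It was lost with equal weight per cell, at a ratio of 1.499, and at a minimum of 200 UMIs. Each group is 1 library, so the difference between the classes was not tested.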

How the results depend on the processing

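Of 130 counts recomputed under the alternatives, 96 stayed within 1.5 times the reported value and 34 did not. Of 473 ratios 436 stayed inside the counting interval of the reported ratio, 35 left it and 2 called ones changed direction. Some of these values could not move or were repeats. The cluster mix of vehicle cannot change a single cluster, nor the tenocyte-like and dendritic-like classes, which are single clusters. Removing cells with mixed markers left several ratios exactly unchanged, and cluster 7 is the tenocyte-like class. The 9 pairs of gene and class past the fold were 5 when all variable genes were used for clustering, 4 with equal weight per cell and 21 when 1 UMI in each library was enough. With equal weight the pairs called were not all among the 9. Tenocyte-like cells still had 2 genes past the fold, although their Tgfb2 ratio fell to 1.19. The share of all genes past the fold was not computed under the alternatives, so their counts have no background and are not read as results about these genes. In FAP-like cells 4 pathway genes were past the fold with equal weight, against 1. Tenocyte-like cells kept 1 of 2 genes without the highest cell and 1 without cells of mixed markers, while pathway genes numbered 5 without the highest cell and 7 with equal weight, against 3. In macrophage/monocyte-like cells 1 gene was past the fold with doublets kept and 6 at a minimum of 1 UMI, against 0, and 7 pathway genes with equal weight, against 4. Dendritic-like cells had 1 under the stricter filter, 1 without the highest cell and 3 at a minimum of 1 UMI, against 0. Pericyte/smooth muscle-like cells had 0 under the stricter filter and 0 with doublets kept, against 1. Satellite/myogenic-like cells had 2 at resolution 2, and 1 each with all variable genes, equal weight and the cluster mix of vehicle, against 4. Glial-like cells had 0 with equal weight, 0 at a minimum of 200 UMIs and 2 at 1 UMI, against 1. Fibre-like cells had 3 at 1 UMI and 0 under the stricter filter, with doublets kept, at resolution 2, with all variable genes, without the highest cell, with equal weight, with median-ratio scaling and at 200 UMIs, against 1, and 3 pathway genes with equal weight, against 5. The Tgfb2 ratio of fibre-like cells turned to 0.999965 with all variable genes and to 0.672 with equal weight. The cause was not tested in any of these cases. The higher UMI minimum leaves fewer genes, and the stricter filter fewer cells.

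The class with the highest level was the same for 25 of 40 pairs of gene and library under the stricter filter, and in 12 of the other 15 the class had fallen below 20 cells. With equal weight per cell it was another class for 6 of 40, and 17 of 40 levels left the counting interval of the reported level. Thinning to 1000 UMIs lowered the shares of cells with a UMI, as it must. The Tgfb3 ratios stayed below 0.667 in every alternative run, from 0.549 to 0.641 in tenocyte-like and from 0.530 to 0.632 in satellite/myogenic-like cells. Some of these alternatives left the ratio unchanged. In cluster 13 all 4 calls held in all 5 alternatives, with Ltbp4 from 2.16 to 2.80. Of these, the cluster mix of vehicle cannot change a single cluster, and the removal of cells with mixed markers changed no value there. The stricter cell filter, kept doublets, other clusterings and other UMI minimums were not among them. The cluster mix of vehicle and the removal of cells with mixed markers were chosen after seeing the data. No paired analysis was possible because each group is 1 library and no result comes from a test. For the same reason no replicate could be left out. Alternatives for kit over bulk gave no value, since no class reached 50 cells in both. Depth was low in fibre-like cells, with medians of 1641 and 1668 UMIs per cell in LNP-CRISPR and vehicle kit.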
